A study of Homo sapiens with 8 samples.

Results

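Replication-dependent histone genes supply the histones that package newly copied DNA. They were examined in the human breast cancer line MDA-MB-231, which is triple-negative. Cells had spent 2 days on a soft substrate (4 arrays, A to D) or on a stiff one (4 arrays, A to D). The labels name no transgene, knockdown or drug in any of the 8 samples, and all grew in DMEM/F12 with 10% fetal bovine serum. Total RNA was labelled as biotinylated cRNA and hybridised to Affymetrix arrays, 1 array for each biological replicate. The stiffness of either substrate is not given in the sources used here, and a single cell line was studied. A gene belonged to the set if a probe set named it alone by a symbol of the form H1-1 to H1-6, H2AC, H2BC, H3C or H4C followed by a number. This gave 42 genes of 19775 measured genes, with 6 in the H1 class, 8 in H2A, 13 in H2B, 7 in H3 and 8 in H4. RefSeq lists 69 protein-coding genes with such symbols, so the other genes of the family were not read by a single-gene probe set here.

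Core histones H2A, H2B, H3 and H4 form the nucleosome, around which DNA is wrapped, and the linker histone H1 binds where DNA enters and leaves it. Their replication-dependent genes lie in clusters, are transcribed together in S phase under the coactivator NPAT, and give mRNAs without introns that end in a stem-loop instead of a poly(A) tail. The stem-loop binding protein SLBP and the U7 small nuclear ribonucleoprotein process these ends, and the mRNAs decay when DNA synthesis stops. Some of the genes are also described to give polyadenylated transcripts, among them H1-2, H2AC6, H2BC4, H2BC5, H2BC12 and H2BC21. The labels do not say whether labelling was primed on poly(A), and the part of tail type in these levels was not tested.

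Promoters are shown for the 4 genes that passed the test between substrates, and for H2AC6, whose level spread widely among the stiff arrays. Each run holds 250 bases before and 50 bases after the RefSeq start of transcription (GRCh38.p14), read along the gene's own strand. Capitals mark 4 motifs searched on both strands: the TATA box (TATAAA), the CCAAT box (CCAAT), the octamer bound by OCT1 (ATTTGCAT) and the H1 box (AAACACA). The windows lie at chr6:26156079-26156378 (plus strand) for H1-4, chr6:27893136-27893435 (minus strand) for H2AC17, chr6:26045134-26045433 (plus strand) for H3C3, chr1:149886633-149886932 (minus strand) for H2BC21 and chr6:26123922-26124221 (plus strand) for H2AC6.
H1-4: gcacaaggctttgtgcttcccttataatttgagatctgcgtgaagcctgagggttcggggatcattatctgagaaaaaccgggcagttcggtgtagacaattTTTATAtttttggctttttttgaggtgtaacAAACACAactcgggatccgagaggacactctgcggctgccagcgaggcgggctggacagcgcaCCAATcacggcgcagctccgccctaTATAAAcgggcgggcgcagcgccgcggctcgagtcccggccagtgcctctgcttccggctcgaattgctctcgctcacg
H2AC17: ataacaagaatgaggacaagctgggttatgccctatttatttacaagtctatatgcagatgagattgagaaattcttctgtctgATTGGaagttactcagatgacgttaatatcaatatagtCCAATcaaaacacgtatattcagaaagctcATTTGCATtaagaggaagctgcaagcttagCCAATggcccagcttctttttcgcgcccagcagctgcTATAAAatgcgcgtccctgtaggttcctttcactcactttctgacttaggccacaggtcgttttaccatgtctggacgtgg
H3C3: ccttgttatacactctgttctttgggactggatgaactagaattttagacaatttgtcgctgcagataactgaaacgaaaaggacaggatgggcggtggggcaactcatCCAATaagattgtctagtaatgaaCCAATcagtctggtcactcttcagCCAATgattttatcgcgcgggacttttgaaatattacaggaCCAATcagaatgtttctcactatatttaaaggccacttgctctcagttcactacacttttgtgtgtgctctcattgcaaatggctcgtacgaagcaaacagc
H2BC21: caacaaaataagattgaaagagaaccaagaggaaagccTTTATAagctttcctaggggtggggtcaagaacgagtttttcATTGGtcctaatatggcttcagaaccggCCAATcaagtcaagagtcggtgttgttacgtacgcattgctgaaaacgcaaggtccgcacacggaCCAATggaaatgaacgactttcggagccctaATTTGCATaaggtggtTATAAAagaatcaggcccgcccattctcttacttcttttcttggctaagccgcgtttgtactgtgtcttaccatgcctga
H2AC6: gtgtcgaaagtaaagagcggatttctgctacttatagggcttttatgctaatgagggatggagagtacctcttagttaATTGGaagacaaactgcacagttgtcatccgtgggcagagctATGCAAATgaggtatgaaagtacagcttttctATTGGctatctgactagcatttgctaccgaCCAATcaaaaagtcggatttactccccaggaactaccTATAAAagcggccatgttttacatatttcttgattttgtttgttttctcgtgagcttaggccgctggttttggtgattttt

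The histone classes carried different motifs. In the H1-4 promoter an H1 box begins 117 bases before the start, a CCAAT box 54 bases and a TATA box 29 bases before it. In H2AC17 an octamer begins 98 bases, and in H2BC21 46 bases, before the start. H3C3 holds 4 CCAAT boxes and neither an octamer nor the exact TATAAA. Of the 42 genes, 40 had a RefSeq window, H3C11 and H4C1 being the others, and of these 38 lie on chromosome 6 and 2 on chromosome 1. The H1 box was found in 6 of 6 H1 promoters and in none of the other 4 classes, against 5.78% of 27305 RefSeq promoters of the same length. The octamer was found in 6 of 8 H2A and 10 of 13 H2B promoters and in 0 of the H1, H3 and H4 promoters, against 1.82% of all promoters. The CCAAT box stood in 35 of 40 promoters, with 2 of 7 in H4, against 35.6% of all. The exact TATA box stood in 27 of 40, against 12.1% of all. No matches of different motifs overlapped. Of the 4 genes past the test 1 carried the H1 box, 2 the octamer, 3 the exact TATA box and 4 the CCAAT box. A match describes the letters only.

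**Figure D1:**
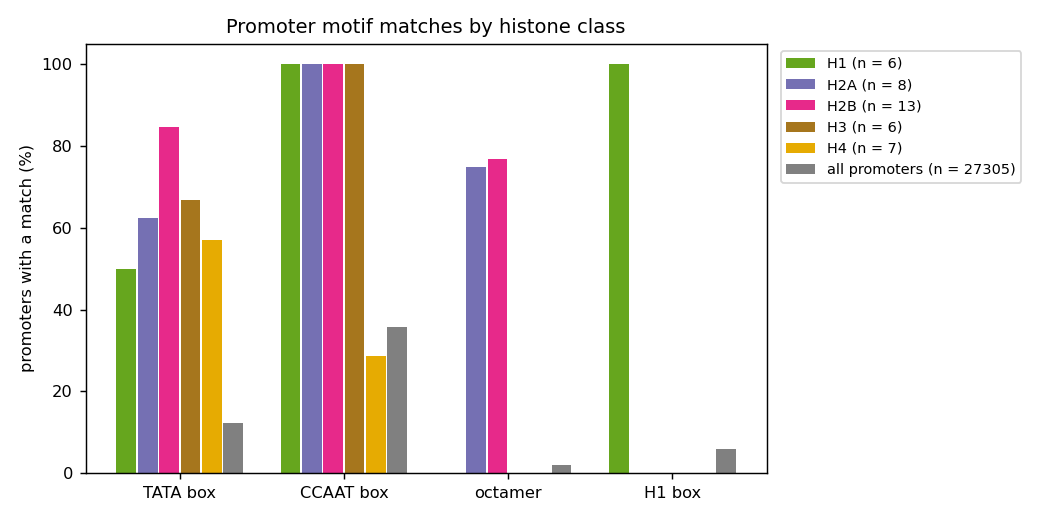
Share of promoters (vertical axis, %) with at least 1 match to each of 4 motifs, for each histone class and for all 27305 RefSeq promoters. The H1 box bar reaches 100% in H1 and the octamer bars 75% in H2A and 76.9% in H2B.

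Correlations between arrays ran from 0.9932 to 0.9982, and no pair was identical. Soft and stiff arrays separated on the first principal component (40.4% of the variance). The second (16.4%) set stiff A and stiff B, at 21.4 and 16.3, apart from stiff C and stiff D, at -21.5 and -11.8. Results that rest on these pairs are therefore given with each pair as well. A level above 6.59 was taken as above background. This is the 95th percentile of the mean log2 level of 15 genes taken as silent in breast cells. It falls between the highest of these, SFTPC at 7.59, and the next, PRM1 at 6.16, so it depends on SFTPC. With a cut at the level of PRM1, the stiff means of H1-4 (6.285) and H3C3 (6.37), among others, would be above background. The 6 genes chosen as present in MDA-MB-231 cells had levels of 13.02 to 14.58, and 1 of 6 chosen as absent, the luminal factor GATA3, stood above background at 8.28. Of the fibroblast, leukocyte and endothelial markers 1 each stood above background, and 1 of these 16 genes passed the test, the endothelial PECAM1, higher on soft by 0.49 (adjusted p = 0.00211). The leukocyte marker LYZ differed by 0.51 and did not pass (adjusted p = 0.0793). The mean of the 5 endothelial markers was 5.50 to 5.59 on soft arrays and 5.39 to 5.59 on stiff arrays, and that of the 5 leukocyte markers 5.62 to 5.73 on soft and 5.28 to 5.66 on stiff. Their part in the results was not tested.

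Most single-gene probe sets of replication-dependent histone genes gave little signal. Read by these probe sets, 9 of the 42 genes (21.4%) were above background in either group, against 53.8% of all genes. The 9 were H1-2, H2AC6, H2AC14, H2AC17, H2BC5, H2BC6, H2BC9, H2BC12 and H4C11, so at the cut of 6.59 no H3 gene was among them. The other 33 genes had levels of 3.16 or more but none had a group mean over 6.59. This describes the probe sets and does not show that the genes were silent. A probe set that names 14 H4 genes together, H4C5 among them, was above background with a mean level of 13.58. RMA levels near background compress differences, so a small difference there is not a measure of a small change. Levels of different probe sets were not compared with each other.

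**Figure D2:**
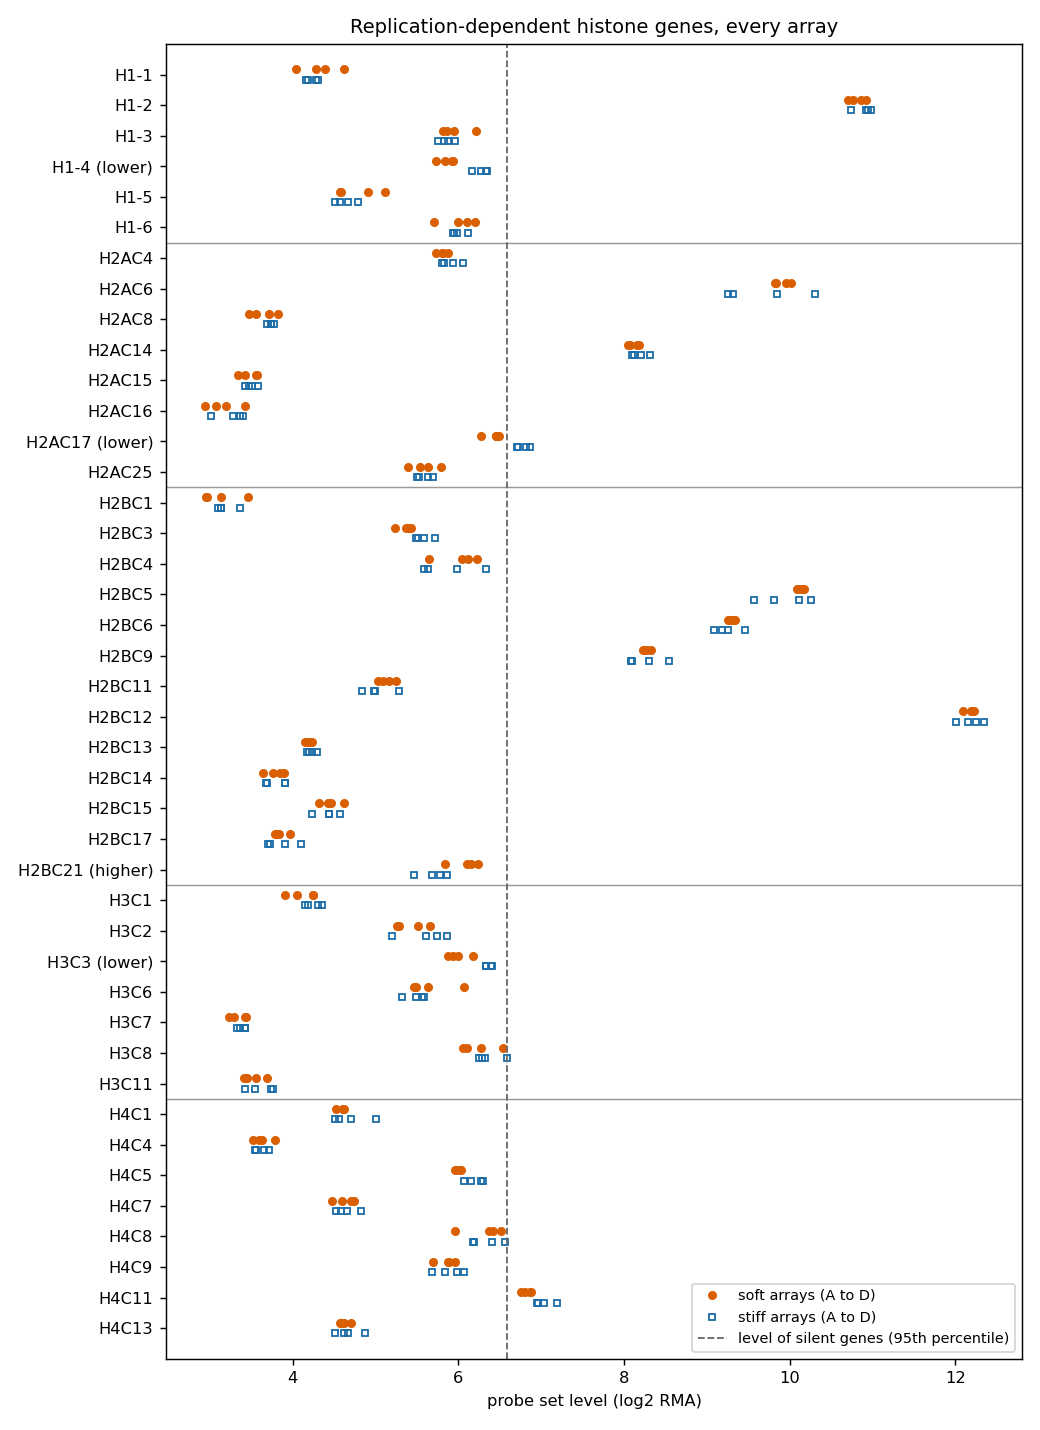
Level of each of the 42 genes (log2 RMA, horizontal axis) on every array, with soft arrays as filled circles above stiff arrays as open squares. Points right of the dashed line at 6.59 are above background, as for the 9 genes named in the text.

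Between soft and stiff substrate 4 of the 42 genes passed the test: 1 was higher on soft (H2BC21) and 3 were lower (H1-4, H2AC17 and H3C3). These are 2.38% and 7.14% of the histone genes, against 4.39% higher and 5.93% lower among all 19775 genes, so neither share stood far from that of all genes. The shares are not matched for level, so they do not show whether histone genes were called as often as genes of like level. Among all genes, 789 of the 868 higher and 1082 of the 1172 lower were above background. Of the histone genes 33 of 42 were below background, and these held 1 higher and 2 lower. Most calls among all genes thus lay above background, whereas H2BC21, H1-4 and H3C3 lay below it. The shares of all genes are therefore no reference for histone genes below background. In bulk RNA, a smaller share of cells in S phase and less histone mRNA per cell cannot be told apart. The test was limma's moderated test with Benjamini-Hochberg adjustment over all probe sets and a threshold of 0.05. At an unadjusted p under 0.05 there were 1 higher and 6 lower. The share of all genes at an unadjusted p was not counted, so such counts, here and below, have no reference. Among the 38 not past the threshold 14 had a soft minus stiff difference above 0 and 24 below. The median difference over the 42 genes was -0.025, against 0.0075 over all genes, and the median size of the difference was 0.0988 against 0.095. Counted over their 48 probe sets, the result was again 1 higher and 3 lower, against 4.64% and 4.63% of all probe sets.

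**Figure D3:**
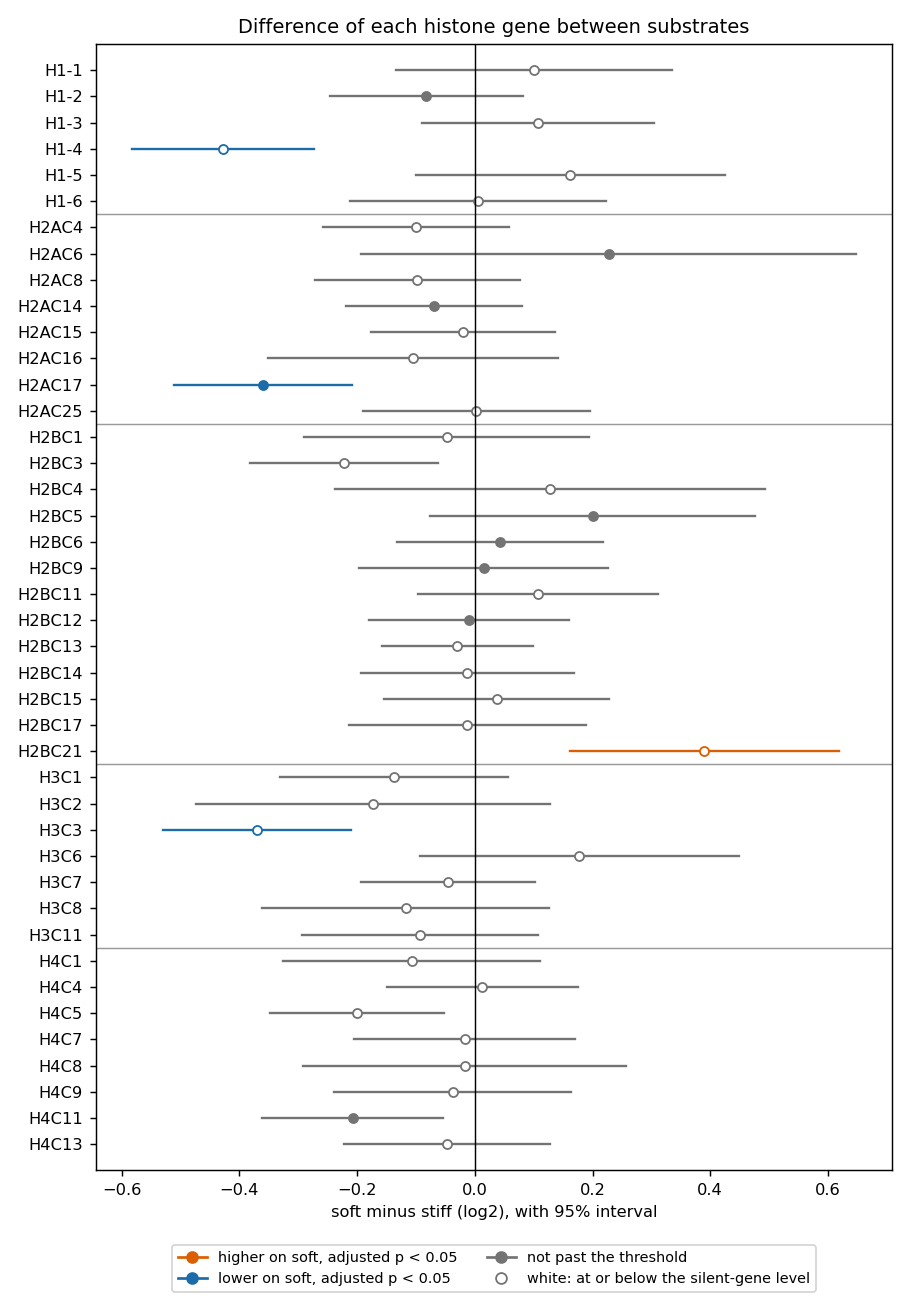
Soft minus stiff difference (log2, horizontal axis) of each gene with its 95% interval, ordered by class. Past the threshold are H1-4, H2AC17 and H3C3 (blue, interval below 0) and H2BC21 (orange, interval above 0). The intervals of H2BC3, H4C5 and H4C11, which did not pass after adjustment, also lie below 0, and open points mark genes at or below the background level.

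Linker histone H1-4 was lower on soft. Its levels were 5.94, 5.92, 5.73 and 5.84 on soft A to D, against 6.35, 6.17, 6.34 and 6.28 on stiff A to D. Every soft array lay below every stiff array. The difference was -0.43 (SE 0.0705, 95% interval -0.58 to -0.27, adjusted p = 0.00452), or 0.744 times the stiff level, and both groups were below background. The other H1 genes did not pass. H1-2, the only H1 gene above background, stood at 10.77, 10.71, 10.86 and 10.92 on soft and at 10.98, 10.74, 10.95 and 10.92 on stiff, with a difference of -0.08 (SE 0.0746, adjusted p = 0.574) and overlapping groups. H1-1, H1-3, H1-5 and the testis H1-6 had differences of 0.1, 0.11, 0.16 and 0.005.

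Of the H2A genes, which pair with H2B in the nucleosome, H2AC17 was lower on soft. It had levels of 6.45, 6.45, 6.49 and 6.28 on soft arrays and 6.72, 6.71, 6.86 and 6.82 on stiff arrays. The groups did not overlap, and the stiff levels alone lay above background, so H2AC17 was the only one of the 4 called genes to reach it. The difference was -0.36 (SE 0.0689, adjusted p = 0.00929), or 0.779 times the stiff level. H2AC6 showed no such order. It had 9.82, 10.02, 9.84 and 9.95 on soft arrays, against 9.31, 9.26, 10.30 and 9.85 on stiff arrays. The soft arrays lay within a span of 0.2, and the stiff arrays spread over 1.04, with A and B lowest and C highest of all 8. The difference was 0.23 (SE 0.191, adjusted p = 0.541). H2AC14 had 8.05, 8.16, 8.07 and 8.18 on soft and 8.21, 8.10, 8.31 and 8.12 on stiff, and the groups overlapped (adjusted p = 0.607). The other 5 H2A genes were below background, with differences of -0.11 to 0.00.

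The H2B class held the only gene higher on soft, H2BC21. It had 6.24, 6.15, 6.11 and 5.84 on soft arrays and 5.46, 5.68, 5.86 and 5.78 on stiff arrays. Soft D lay just below stiff C, so the groups overlapped, and all 8 levels were below background. The difference was 0.39 (SE 0.104, 95% interval 0.16 to 0.62, adjusted p = 0.0397), or 1.31 times the stiff level. The call was lost when soft A, B or C (adjusted p = 0.104, 0.0955 and 0.0729) or stiff A, B or D (adjusted p = 0.0913, 0.0942 and 0.0631) was left out. H2BC5 had 10.13, 10.16, 10.09 and 10.17 on soft, against 9.81, 9.57, 10.26 and 10.11 on stiff. All soft arrays lay between the lowest and highest stiff array, and the difference was 0.2 (SE 0.126, adjusted p = 0.39). Its second probe set gave 9.53, 9.64, 9.52 and 9.50 on soft and 9.16, 9.39, 9.72 and 9.54 on stiff, the same order of stiff C over stiff D over A and B. Both probe sets carry the manufacturer's mark for probes shared between transcripts, so they are not independent readings of H2BC5.

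The remaining bright H2B genes had small differences. H2BC6 had 9.25, 9.30, 9.34 and 9.27 on soft and 9.09, 9.18, 9.46 and 9.26 on stiff. H2BC9 had 8.23, 8.33, 8.28 and 8.24 on soft and 8.10, 8.08, 8.54 and 8.30 on stiff. H2BC12 had 12.09, 12.19, 12.20 and 12.23 on soft and 12.15, 12.01, 12.34 and 12.25 on stiff. In each of the 3 genes stiff C was the highest array and either stiff A or stiff B the lowest, with differences of 0.04, 0.015 and -0.01. H2BC3 had 5.43, 5.23, 5.39 and 5.37 on soft and 5.51, 5.49, 5.72 and 5.59 on stiff. Its groups did not overlap, but it missed the threshold (difference -0.22, adjusted p = 0.0853).

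Of the H3 genes, which carry the most studied histone marks, H3C3 was lower on soft, with 5.88, 6.18, 6.0 and 5.94 on soft arrays and 6.34, 6.41, 6.33 and 6.40 on stiff arrays. The groups did not overlap, and both lay below background. The difference was -0.37 (SE 0.0729, adjusted p = 0.0106), or 0.774 times the stiff level. The other 6 H3 genes were below background too and had differences of -0.17 to 0.18, none past the threshold.

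No H4 gene passed limma's test, and at an unadjusted p under 0.05 there were 0 higher and 2 lower. H4C11 had 6.80, 6.76, 6.87 and 6.88 on soft arrays and 6.96, 7.19, 6.95 and 7.04 on stiff arrays. Every soft array was below every stiff array, and the difference was -0.21 (SE 0.0702, adjusted p = 0.0955). When only probe sets above background were tested, its adjusted p was 0.0304. H4C5 had 6.03, 6.01, 5.96 and 6.0 on soft and 6.28, 6.15, 6.07 and 6.30 on stiff, again without overlap (difference -0.2, adjusted p = 0.0947). Over the 42 genes the arrays did not overlap in 6 genes lower on soft (H1-4, H2AC17, H2BC3, H3C3, H4C5 and H4C11) and in 0 higher, against 11.2% and 8.78% of all genes.

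A further 20 probe sets name several histone genes each, from 2 to 14 genes, and so fall outside the 42. None passed limma's test, 0 had an unadjusted p under 0.05, and their differences ran from -0.18 to 0.13 (lowest adjusted p 0.365). Of these, 5 probe sets name the same 14 H4 genes, with differences of -0.18 to -0.03; the one with a mean level of 13.58 differed by -0.08, and none of the 5 passed.

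The bright histone genes varied more among the stiff arrays than among the soft arrays. In 8 of the 9 genes above background the stiff arrays spanned more than the soft arrays, against 41.7% of all genes above background. Their median span was 0.13 on soft and 0.33 on stiff, whereas over all genes above background it was 0.18 on soft and 0.16 on stiff. Stiff C alone was the highest of the 8 arrays in 7 of the 9, against 15.0% of all genes above background. H2AC17, 1 of the 7, passed the background level only through its stiff arrays; of the other 8 genes stiff C was alone highest in 6, and the stiff arrays spanned more in 8. These counts were chosen after the values were seen. Of the 9 probe sets 6 carry the manufacturer's mark for probes shared between transcripts, so they are not independent readings. Among the several-gene probe sets, which share probes with them, 7 were above background, and stiff C was alone highest in 6 of these.

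**Figure D4:**
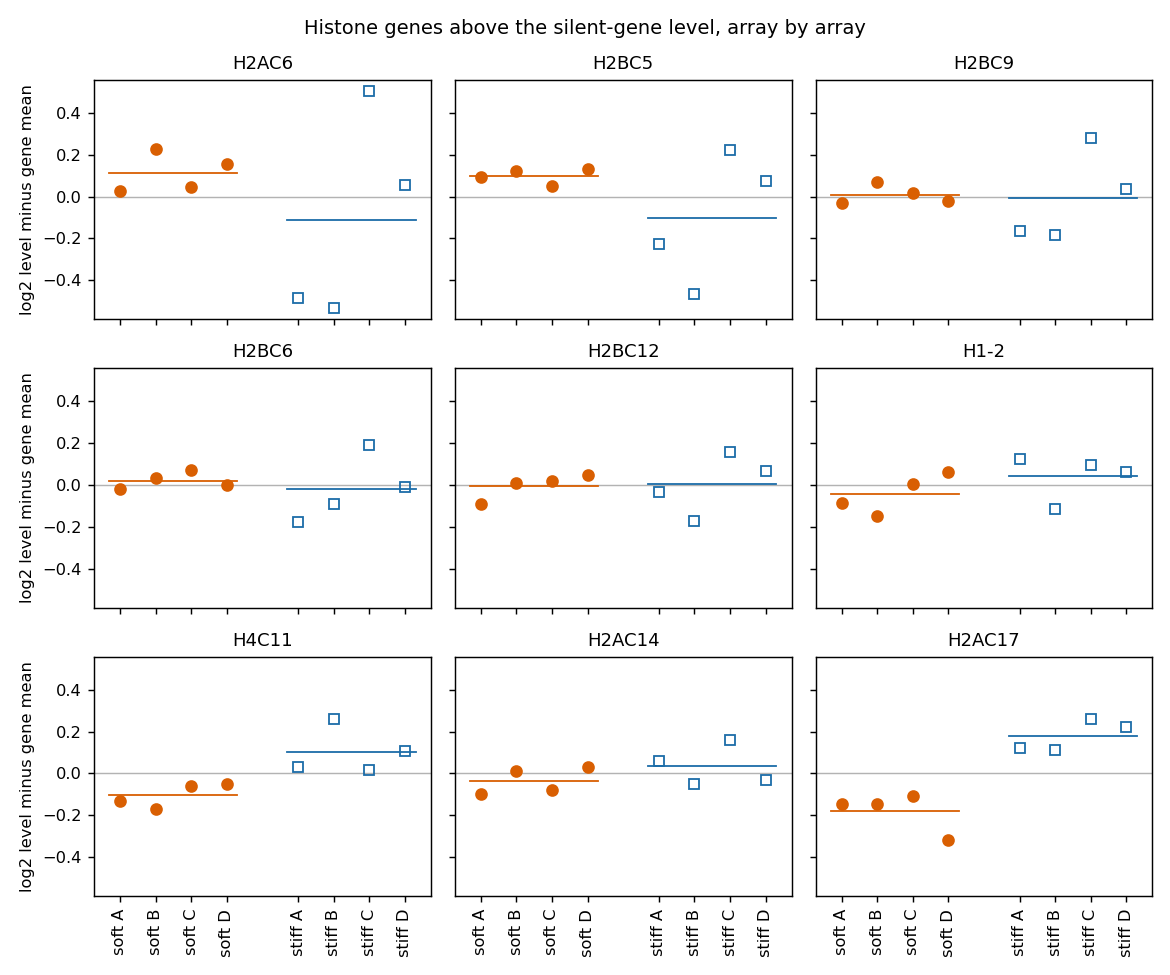
Level of the 9 genes above background on each array as the deviation from the gene's mean over 8 arrays (log2, vertical axis), ordered by the span of the stiff arrays. Soft arrays (orange circles) stay close to their mean line, while stiff C lies highest in 7 panels and stiff A and B lie lowest in H2AC6, H2BC5, H2BC6 and H2BC9.

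For H2AC6 and H2BC5 the sign of the difference depended on which stiff arrays stood for the stiff substrate, whereas for H1-4 and H3C3 it did not. With stiff A and B only, H2AC6 was higher on soft by 0.62 (adjusted p = 0.00679), H2BC5 by 0.45 (adjusted p = 0.0251) and H2BC21 by 0.52 (adjusted p = 0.0464), and H1-4 was lower (difference -0.40, adjusted p = 0.0444). That is 3 higher and 1 lower, against 2.92% and 2.66% of all genes in the same fit. With stiff C and D only, 0 were higher and 2 were lower, H1-4 (difference -0.45, adjusted p = 0.0256) and H2AC17 (difference -0.42, adjusted p = 0.031), against 2.27% and 1.96% of all genes. In that fit H2AC6 and H2BC5 had differences of -0.17 and -0.05. H3C3 passed with neither pair, with differences of -0.375 with A and B (adjusted p = 0.0644) and -0.365 with C and D (adjusted p = 0.0754). H2AC17 did not pass with A and B (difference -0.30, adjusted p = 0.0878). Each fit had only 2 stiff arrays. The pairs were taken from the values, so these p-values describe the arrays named and no group of the study.

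Several of the genes share 1 stretch of promoter with a partner that starts on the opposite strand. By RefSeq, 14 of the genes start head to head with another gene of the family, 194 to 248 bases apart, and in 4 pairs both partners were measured. H2AC6 and H2BC4 start 246 bases apart, in the window printed above. H2BC4 was below background, with 5.65, 6.23, 6.12 and 6.05 on soft arrays and 5.59, 5.63, 6.33 and 5.99 on stiff arrays. As in H2AC6, stiff C was the highest array and stiff A and B were the lowest, and the difference was 0.13 (SE 0.166, adjusted p = 0.716). H2AC17 and H2BC17 start 240 bases apart. H2BC17 had 3.83, 3.80, 3.79 and 3.97 on soft and 3.70, 3.73, 4.10 and 3.91 on stiff, with a difference of -0.01 (adjusted p = 0.957) where that of H2AC17 was -0.36. Whether these 2 differences differ was not tested. The third and the fourth pair, H2AC14 with H2BC14 and H2AC15 with H2BC15, had differences of -0.07, -0.01, -0.02 and 0.04.

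Genes of DNA replication, histone gene control and histone assembly were taken as companion lists. Of 34 measured genes of DNA replication in S phase 15 were lower and 0 higher on soft, and 27 were lower and 0 higher at an unadjusted p under 0.05 in limma. All 34 had a difference below 0, with a median of -0.27. Among all genes 5.93% were lower, and among the 10647 genes above background 1082 were lower and 789 higher. All measured genes of this list were above background, as were those of the transcription, mRNA processing and chaperone lists below. The count lower was 8, 7, 21 and 9 when soft A, B, C or D was left out. It was 9, 6, 14 and 10 when stiff A, B, C or D was left out. With fewer arrays each test is less precise, and the shares of all genes in these fits were not counted. The count was 9 with stiff A and B only and 2 with stiff C and D only, against 2.66% and 1.96% of all genes. CDT1, which licenses origins, averaged 8.89 ± 0.149 on soft and 9.47 ± 0.0465 on stiff (SD, n = 4 each; adjusted p = 0.00157 by limma). MCM10, GINS1 and GINS2, parts of the replication fork machinery, differed by -0.53, -0.49 and -0.48 (adjusted p = 0.0113, 0.0026 and 0.0175). The sliding clamp PCNA and the ribonucleotide reductase subunit RRM2 missed the threshold, with differences of -0.18 (adjusted p = 0.226) and -0.28 (adjusted p = 0.0556).

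The course across the arrays is given for the S phase list and the histone genes. The median deviation of the 34 S phase genes from their gene means was -0.28, -0.22, 0.00 and -0.07 on soft A to D, against 0.17, 0.19, 0.05 and 0.08 on stiff A to D, so soft A and B were lowest and stiff A and B highest. That of the 9 bright histone genes was -0.09, 0.01, 0.02 and 0.03 on soft, against -0.03, -0.12, 0.19 and 0.06 on stiff, with stiff B lowest and stiff C highest. That of all 42 histone genes was -0.01, -0.03, -0.04 and -0.03 on soft, against 0.05, -0.05, 0.09 and 0.05 on stiff, so the soft arrays were below 0 and 3 of the 4 stiff arrays above it.

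The list for histone gene transcription had 5 of 15 genes lower and 0 higher on soft, against 5.93% lower and 4.39% higher among all genes. Its median difference was -0.23, and 9 were lower and 0 higher at an unadjusted p under 0.05 by limma. CCNE2, a cyclin E that activates CDK2, averaged 10.03 ± 0.265 on soft and 10.53 ± 0.0568 on stiff (SD, n = 4 each; adjusted p = 0.0185 by limma). NFYA, a subunit of the factor that binds CCAAT boxes, differed by -0.44 (adjusted p = 0.00184), and the transcription factor E2F3 by -0.26 (adjusted p = 0.0307). GMNN, which differed by -0.32 (adjusted p = 0.00957), is known as the inhibitor of CDT1 in replication licensing and not as a regulator of histone genes. Without it, a choice made after the values were seen, 4 of 14 were lower, with a median of -0.22. NPAT itself did not pass (difference -0.21, adjusted p = 0.221), nor did its partner CASP8AP2 (-0.23, adjusted p = 0.0821). Of 21 genes that process or degrade histone mRNA 3 were lower and 1 higher, against 5.93% and 4.39% of all genes. Their median difference was -0.125, and 11 were lower and 1 higher at an unadjusted p under 0.05. The cap-binding subunit NCBP1, the exonuclease ERI1, which trims histone mRNA ends, and the cleavage factor CSTF2 were lower, with differences of -0.32, -0.27 and -0.23 (adjusted p = 0.0211, 0.0234 and 0.0427). MIF4GD, an SLBP-binding protein, was higher by 0.31 (adjusted p = 0.0331). SLBP had a difference of -0.21 (adjusted p = 0.0717) and LSM11, a U7 subunit, of -0.12 (adjusted p = 0.331).

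**Figure D5:**
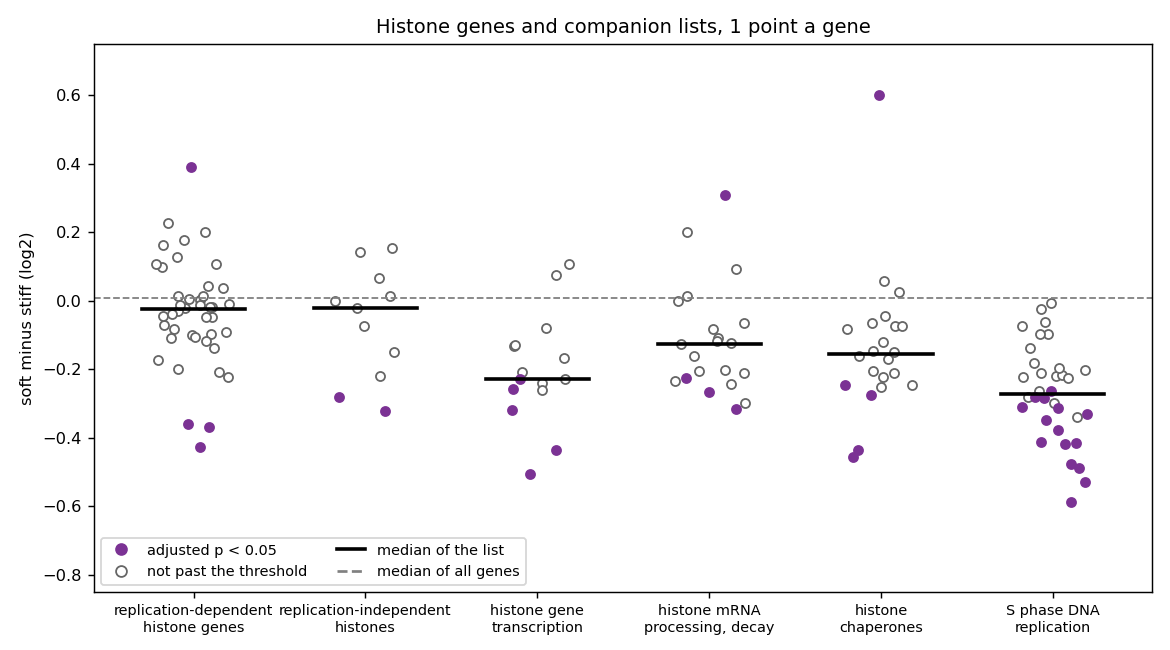
Soft minus stiff difference (log2, vertical axis) of the 42 histone genes and of 5 companion lists, 1 point a gene, with filled points past the threshold and a bar at each median. The medians are -0.025 for the histone genes and -0.27 for the S phase genes, against 0.0075 (dashed line) for all genes.

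Of 22 histone chaperones and acetyltransferases 4 were lower and 1 higher on soft, with a median difference of -0.16, against 5.93% lower and 4.39% higher among all genes. All 22 were above background, where 1082 of 10647 genes were lower and 789 higher. HIRA, a chaperone of the variant H3.3, differed by -0.46 (adjusted p = 0.00125), the importin IPO4 by -0.44 (adjusted p = 0.0109), CHAF1A of the replication-coupled assembly factor CAF-1 by -0.28 (adjusted p = 0.0289) and SUPT16H of the FACT complex by -0.25 (adjusted p = 0.0268). UBN1, which acts with HIRA, was higher by 0.60 (adjusted p = 0.00103). CHAF1B, ASF1B and NASP had differences of -0.17, -0.08 and -0.21 and did not pass. Of 11 measured genes listed here as replication-independent histones 2 were lower and 0 higher on soft, against 5.93% and 4.39% of all genes. At an unadjusted p under 0.05 by limma 3 of the 11 were lower and 0 higher. H2AX, the variant phosphorylated at DNA breaks, averaged 10.84 ± 0.142 on soft and 11.16 ± 0.112 on stiff (SD, n = 4 each; adjusted p = 0.0378 by limma). H3-3A, an H3.3 gene, differed by -0.28 (adjusted p = 0.0337) on a dim probe set that was above background on the stiff arrays only. CENPA of the centromere and H2AZ1 did not pass, with differences of -0.22 (adjusted p = 0.115) and -0.15 (adjusted p = 0.238), and H3-3B was not read by a probe set of its own. The 6 histone genes described with polyadenylated transcripts had a median difference of 0.16, with 1 higher (H2BC21) and 0 lower, also at an unadjusted p under 0.05 in limma. With stiff A and B only the median of these 6 was 0.43, with 1 difference below 0, and with stiff C and D only it was -0.12, with 5 below 0, so its sign depended on the pair. These pairs were taken from the values. In H2AC6, H2BC4, H2BC5 and H2BC12 stiff C was the highest array, so the turn of sign is no separate result and no trait of tail type.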

How the data were processed

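RNA of 8 cultures was measured on 8 arrays, 4 per substrate. Per the submitters' processing notes the authors summarised probe intensities by RMA, and the deposited values are on the log2 scale, judged from their range. RMA corrects background, equalises the arrays' distributions and removes any shift common to all genes. Its software and version are not given in the sources used here. Of 54675 probe sets 62 manufacturer controls were left out. Names came from the platform annotation, updated through RefSeq: 41091 probe sets had 1 symbol, 1801 several and 11721 none. Each gene was read by its probe set of highest mean level.

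Differences are soft minus stiff, fitted to the 54613 probe sets with limma 3.58.1 (R 4.3.3, lmFit and eBayes), two-sided, with Benjamini-Hochberg adjustment over all of them and a threshold of 0.05. The labels call the replicates biological and say no more of the cultures. The p-values therefore reflect only the spread among these 8 arrays, whose number limits the precision. On simulated data, 58% of changes of 0.5 and 97% of changes of 1 on the log2 scale were recovered. There 100 probe sets were changed by each size, with noise independent between arrays and probe sets. In the data 2535 probe sets were called higher and 2526 lower, so these rates need not hold for them. The histone differences ran from -0.43 to 0.39, smaller than either size. The smallest p an exact permutation of 4 against 4 arrays allows is 0.0286.

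Every histone gene of the set could be named. Of each companion list up to 4 genes per direction with the largest differences past the threshold were named, and 15 genes were named whatever their result. Members, companion lists and the silent genes were chosen with earlier results of these data known. Promoter windows and their sequences are RefSeq's (GRCh38.p14), 1 window a gene, a pair of starts counting as head to head up to 500 bases apart. Alternatives were a replicate block, other scalings, array weights, trended and robust variance, other thresholds, filters on dim or shared probe sets, pairs of stiff arrays and leaving out each array.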

Additional observations from a re-analysis of the deposited data

Results flagged for a closer look

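Among the 84 groups of 4 arrays that the 42 genes give, 2 held an array far from the other 3, and chance puts about 1 in 20 groups past this limit. H2BC1 stood at 3.36 on stiff A, with the other stiff arrays at 3.10 to 3.13. H4C1 stood at 4.52 on soft B, with the other soft arrays at 4.61 to 4.62. Both probe sets were below background, and neither gene passed the test between substrates.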

How the results depend on the processing

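The sign of no called difference turned under any alternative run. H1-4 passed the threshold in 20 of 20 settings, H2AC17 in 20 of 21, H3C3 in 17 of 20 and H2BC21 in 8 of 19. Not all settings could remove a call. A threshold of 0.1 keeps each of them, and the mean of all probe sets left their values unchanged, as each has 1 probe set. H2AC17 entered the setting of only probe sets above background through its stiff mean (6.78, against 6.42 on soft). Their differences ran from -0.47 to -0.385 for H1-4, -0.42 to -0.30 for H2AC17, -0.43 to -0.33 for H3C3 and 0.27 to 0.52 for H2BC21. The count of histone genes higher on soft, 1 in the main comparison and the same over probe sets, was 0 with a replicate block, cyclic loess, only probe sets above background, array weights, a threshold of 0.01, stiff C and D only, or no shared-probe mark, and 3 with stiff A and B only. H2BC21 is below background and carries the shared-probe mark, so those 2 filters removed it untested. Leaving out 1 array gave 0 to 1 higher. The count lower on soft, 3 in genes and in probe sets, was 6 at a threshold of 0.1 and 1 with stiff A and B only. The median difference of the 42 genes was -0.07 with stiff C and D only. The count of S phase genes lower on soft, 15 in the main comparison, was 9 with a replicate block, 23 among probe sets above background, 24 with trended and robust variance, 3 at a threshold of 0.01, 23 at 0.1, 9 with stiff A and B only and 2 with stiff C and D only, and 6 to 21 when 1 array was left out, lowest without stiff B. The labels do not say whether arrays of the same letter share more than the letter. Deviations of same-letter arrays correlated at 0.12, -0.12, 0.05 and -0.04 for A to D. With so few arrays these values cannot show whether a batch was shared. For the histone genes singly, 819 results kept their side of the threshold, 6 newly passed it and 15 no longer did. The causes were not tested. The single-gene probe sets of 33 of the 42 genes gave signals within the background range, which limits what their differences can show.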
